A study of Mus musculus with 6 samples.

Results

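The enzymes described here make the building blocks of nucleic acids: purine and pyrimidine nucleotides, the deoxynucleotides of DNA, the folate one-carbon units that nucleotide synthesis consumes, and the polyamines that accompany growth. The set is a list of 38 mouse genes chosen by name and function, with earlier results of these data known. Of them, 37 were found among the 15035 genes of the deposited table. The remaining gene, Amd1, which makes the decarboxylated donor for spermidine and spermine, was not analysed here. Expression was measured by RNA-seq in cells labelled murine leukemia cells. They were BALB/c mouse bone marrow cells into which mutant forms of CSF3R and CEBPA had been brought by retrovirus. CSF3R is a cytokine receptor of the neutrophil lineage and CEBPA a myeloid transcription factor. The cells were given GSK-LSD1, which blocks the lysine demethylase LSD1, at 4 nM for 48 h in 3 libraries, or the solvent DMSO for 48 h in 3 libraries, and both groups carried the same oncogenes and grew in the same serum-containing medium. The labels do not give the mutations, the number of clones or animals, or whether replicate libraries were grown as independent cultures, so the p-values measure the spread between these libraries, which may be technical.

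Purines are built step by step on phosphoribosyl pyrophosphate (PRPP) until inosine monophosphate (IMP) is reached, which then branches to AMP and GMP. Pyrimidines are built as a free ring that is afterwards joined to PRPP, and both routes need aspartate, glutamine or folate-bound one-carbon units. Ribonucleotide reductase turns ribonucleotides into deoxynucleotides, and thymidylate synthesis needs a further folate unit. Proliferating blood progenitors depend on these routes, and inhibitors of several of the steps are established antileukemic drugs.

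All values are gene counts scaled by 1 factor per library, as deposited by the authors. The libraries summed to 9877460 to 9908370 with GSK-LSD1 and 9960630 to 10107900 with DMSO. Of 14 markers listed for the myeloid lineage, all were measured, and their summed value, most of it from the cytokine receptor gene Csf2rb, was 62956 to 63225 with GSK-LSD1 and 53275 to 56893 with DMSO. Of the 14, 9 rose, 3 fell and 2 did not pass, where 20.6% of all genes tested were called higher and 20.5% lower. The log2 fold change was 1.82 for the integrin gene Itgam (adjusted p = 5.26e-20) and 2.03 for Csf3r (adjusted p = 4.14e-19). The 3 that fell were the granule protease genes Elane (-0.92, adjusted p = 6.98e-06), Prtn3 (-0.67, adjusted p = 8.70e-13) and Ctsg (-0.47, adjusted p = 2.13e-07). The measured B cell markers, 4 of 7 listed, summed to 2.07 to 6.12 with GSK-LSD1 and 2.97 to 4.88 with DMSO, and Cd79a was at 0 in all DMSO libraries. The measured T and NK cell markers, 3 of 8, summed to 130.4 to 143 with GSK-LSD1 and 175 to 193 with DMSO. The measured stromal and endothelial markers, 4 of 9, summed to 4674 to 4776 with GSK-LSD1 and 3782 to 4256 with DMSO, most of it from Pecam1, which myeloid cells also express. In bulk RNA, fewer cells of a type and less RNA per cell cannot be told apart.

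After 48 h of GSK-LSD1, nearly all of these enzymes were expressed at a lower level, each by a modest amount. Of the 37 members, 31 fell, 1 rose and 5 did not pass the threshold (limma on log2 values, Benjamini-Hochberg adjusted p under 0.05 over all 11588 genes tested). Among all genes tested, 20.5% were called lower and 20.6% higher, 41.1% in either direction, whereas 83.8% of the members were lower. The members were chosen with earlier results of these data known, so this contrast is a description and not a test. The median log2 fold change of the members was -0.26, a level 16.3% lower, and that of all genes tested was -0.01. All 37 members were abundant enough to be tested, with values from 144 to 7199.9, so none was lost to the filter on low values. Among the 7576 genes tested whose mean value lay in the members' range, 25.2% were lower and 18.9% higher, with a median of -0.04.

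The size of the falls was narrow. The 31 falls lay between 8.17% for Paics and 30.7% for Srm, no member changed by 2-fold, and 636 genes elsewhere in the table did. Together the members took 0.630%, 0.621% and 0.625% of the summed values of the GSK-LSD1 libraries, against 0.732%, 0.748% and 0.732% in the DMSO libraries. All 3 GSK-LSD1 libraries were below all 3 DMSO libraries for 32 members and above them for 1, compared with 24.8% and 24.7% of all genes tested. The lowest of the 6 values of a member fell in GSK-LSD1 replicate 1 for 12 members, replicate 2 for 15 and replicate 3 for 7. Leaving out 1 library at a time left 27 to 31 members lower.

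**Figure D1:**
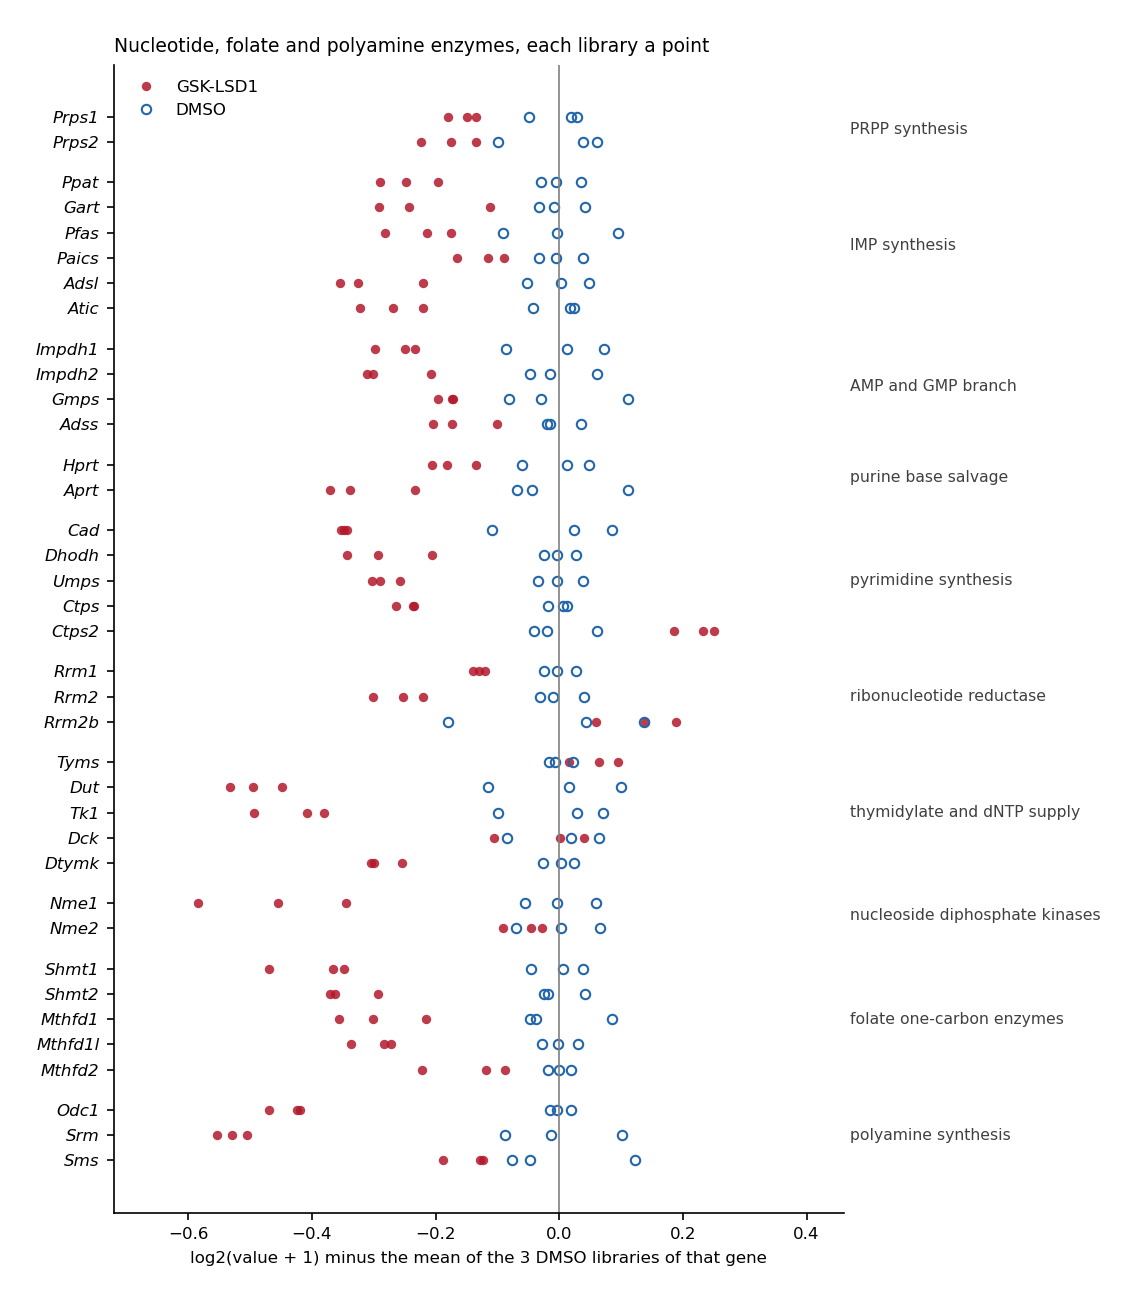
Each point is 1 library, plotted as its log2(value + 1) minus the mean of the 3 DMSO libraries of that gene (x axis, log2 units), with the 37 enzymes in rows grouped by role. Filled red points are GSK-LSD1 and open blue points DMSO; for 32 enzymes the red points lie left of all blue points, and Ctps2 is the only enzyme whose red points all lie to the right.

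**Figure D2:**
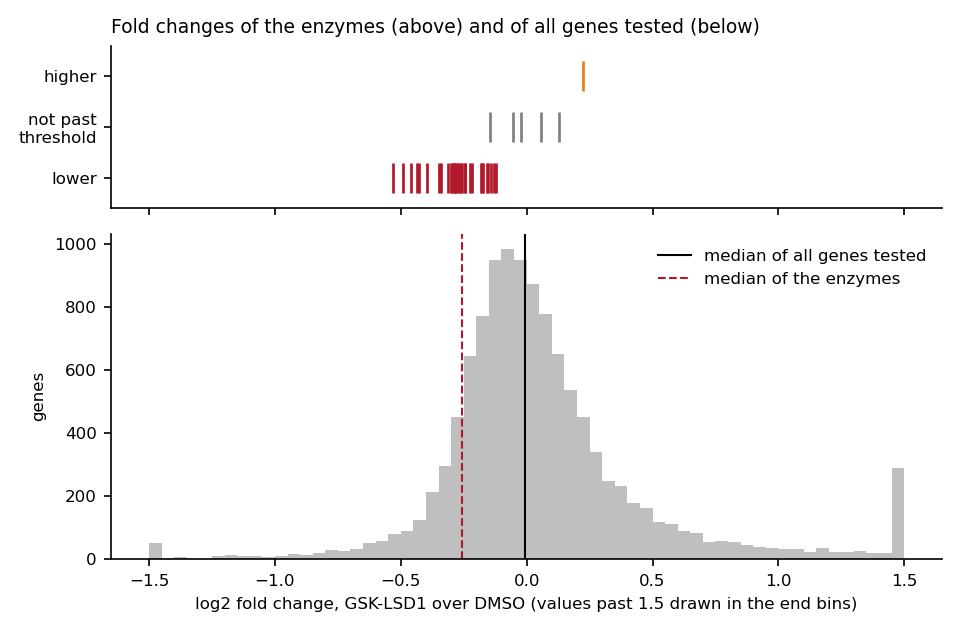
The upper panel marks the log2 fold change (x axis, GSK-LSD1 over DMSO) of each of the 37 enzymes by its call, and the lower panel counts all 11588 genes tested (y axis) in bins of the same scale. The enzymes' median of -0.26 lies left of the median of all genes, -0.01, and the enzymes stay within 0.53 of 0.

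The first purine precursor is supplied by the PRPP synthetases Prps1 and Prps2, both X-linked, and both fell slightly. Prps1 had values of 908, 937 and 928 in the GSK-LSD1 libraries, against 994, 1042 and 1049 in the DMSO libraries. Prps2 had 727, 773 and 752 with GSK-LSD1, against 886, 872 and 792 with DMSO. In both genes the groups did not overlap, but the gap was small, with log2 fold changes of -0.15 (SE 0.0536, adjusted p = 0.0198) and -0.18 (SE 0.0588, adjusted p = 0.0146). These calls were fragile. That of Prps1 was lost without GSK-LSD1 replicate 1 (0.0729), GSK-LSD1 replicate 3 (0.0555) or DMSO replicate 2 (0.0558) and in limma without a variance trend (0.0558), the values in brackets being adjusted p. The Prps2 call failed without GSK-LSD1 replicate 1 (0.0737), DMSO replicate 1 (0.0663) or DMSO replicate 2 (0.0602) and in limma without a variance trend (0.0759).

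The 6 genes of the path from PRPP to IMP all fell. Ppat encodes the amidotransferase that commits PRPP to purines, and its values were 1493, 1398 and 1440.4 in the GSK-LSD1 libraries, against 1675, 1753 and 1703 in the DMSO libraries. The groups lay well apart, with a log2 fold change of -0.24 (SE 0.0489, adjusted p = 0.000107). Gart, whose protein carries 3 activities of the pathway, fell by 13.9% (adjusted p = 0.000435), and Pfas, which adds the amide nitrogen of glutamine, by 14.4% (adjusted p = 0.00121). Adsl, which acts both on the way to IMP and on the way to AMP, fell by 18.8% (adjusted p = 1.79e-05) and Atic, which completes the ring with a folate-borne carbon, by 17.1% (adjusted p = 1.13e-05). Paics, the bifunctional carboxylase and synthetase, fell least of all members called. It had 4121, 4345 and 4269 with GSK-LSD1, against 4516, 4607 and 4744 with DMSO, a log2 fold change of -0.12 (adjusted p = 0.0217). The Paics call did not hold when 1 of 2 libraries was left out, GSK-LSD1 replicate 1 (0.120) or GSK-LSD1 replicate 3 (0.0651). It also failed with quantile scaling (0.179), with libraries scaled to the same total (0.0513) and in limma without a variance trend (0.109).

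Ppat and Paics lie head to head on the genome (chromosome 5, 76913249 to 76951578 for Ppat on the minus strand and 76951307 to 76967509 for Paics on the plus strand, GRCm38), and their exons overlap by 272 bases on opposite strands. Strand treatment in counting is not given in the sources used here, so reads in the overlap, 6.15% of the exon bases of Ppat and 8.67% of those of Paics, cannot be assigned to one of them. Exons of Gart overlap the gene model Gm15964 on the other strand over 19.7% of their length, which makes its value uncertain in the same way.

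From IMP onward, all 4 genes of the GMP and AMP branches fell. The IMP dehydrogenases Impdh1 and Impdh2 set the rate of guanine nucleotide synthesis, and Impdh2 is the form usually raised in proliferating cells. Impdh1 had 1341, 1403 and 1387 in the GSK-LSD1 libraries, against 1663, 1734 and 1554 in the DMSO libraries. Impdh2 had 2863, 2683 and 2664 with GSK-LSD1, against 3199, 3451 and 3273 with DMSO. Both fell by nearly the same fraction, 16.5% (log2 fold change -0.26, SE 0.0509, adjusted p = 7.98e-05) and 17.3% (-0.27, SE 0.0462, adjusted p = 9.41e-06). Reads of Impdh2 can be shared with the pseudogene Impdh2-ps, the 1 other gene that holds some of its 50-base transcript stretches, 39.3% of them. Gmps, the GMP synthetase, had 1962, 1929 and 1958 with GSK-LSD1, against 2164, 2089 and 2386 with DMSO, and fell by 11.7% (adjusted p = 0.00341). Adss, the adenylosuccinate synthetase of the AMP branch, had 1360.0, 1390.1 and 1462 with GSK-LSD1, against 1551, 1547 and 1606 with DMSO. It fell by 10.5%, with a log2 fold change of -0.16 (SE 0.0496, adjusted p = 0.00924). The call of Gmps was lost in limma without a variance trend (0.0754), and that of Adss without GSK-LSD1 replicate 1 (0.0604) and in limma without a variance trend (0.0603).

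Salvage of purine bases moved the same way as synthesis. Aprt, which recovers adenine, had 871, 958 and 892 in the GSK-LSD1 libraries, against 1075, 1218 and 1093 in the DMSO libraries. The groups did not overlap, with a log2 fold change of -0.31 (SE 0.0574, adjusted p = 3.12e-05). Hprt, which recovers hypoxanthine and guanine, had 1509.9, 1437 and 1462 with GSK-LSD1, against 1589, 1673 and 1713 with DMSO, a fall of 11.4% (adjusted p = 0.00458) that was lost in limma without a variance trend (0.0504).

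In pyrimidine synthesis 4 of 5 genes fell and 1 rose. Cad encodes the trifunctional enzyme of the first 3 steps, and its values were 2815, 2831 and 2824 in the GSK-LSD1 libraries, against 3812, 3653 and 3332 in the DMSO libraries. The GSK-LSD1 libraries agreed to within a small fraction of the spread among DMSO libraries, with a log2 fold change of -0.35 (SE 0.0473, adjusted p = 2.12e-07). Dhodh, the dehydrogenase of the inner mitochondrial membrane, fell by 17.7% (adjusted p = 0.00375) and Umps, which joins the ring to PRPP and decarboxylates it, by 17.8% (adjusted p = 1.36e-05).

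The CTP synthases, which convert UTP to CTP, went in opposite directions. Ctps had 819, 804 and 820.5 in the GSK-LSD1 libraries, against 969.7, 953 and 974 in the DMSO libraries, a log2 fold change of -0.24 (SE 0.0542, adjusted p = 0.000382). Ctps2, on the X chromosome, had 461, 455 and 441 with GSK-LSD1, against 404, 377 and 382 with DMSO, a log2 fold change of 0.22 (SE 0.0698, adjusted p = 0.00987). Neither gene's groups overlapped, and Ctps2 was the 1 member that rose, in the main test and in all 14 alternative settings. Per kb of annotated exon, Ctps was at 246 with GSK-LSD1 and 291 with DMSO and Ctps2 at 95.9 with GSK-LSD1 and 82.1 with DMSO, so Ctps remained the more abundant of the pair.

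Ribonucleotide reductase is built from a large subunit, Rrm1, and a small subunit, Rrm2 in dividing cells or Rrm2b, the form induced by p53. Rrm2 had 4015, 3797 and 3925 in the GSK-LSD1 libraries, against 4576, 4644 and 4809 in the DMSO libraries. The groups were clearly separate (log2 fold change -0.26, SE 0.0435, adjusted p = 9.61e-06). Rrm1 fell by 8.61% (adjusted p = 0.0137), a call lost without GSK-LSD1 replicate 3 (0.0660), with quantile scaling (0.207) and in limma without a variance trend (0.0728). Rrm2b had 179.6, 169.8 and 186 with GSK-LSD1, against 168, 144 and 179 with DMSO. Its groups overlapped and it did not pass, with a log2 fold change of 0.13 (95% interval -0.08 to 0.34, adjusted p = 0.342), and it was the least abundant member per kb of exon, at 19.5 with GSK-LSD1 and 17.9 with DMSO.

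Enzymes of thymidylate and deoxynucleotide supply split. Dut, the dUTPase that keeps uracil out of DNA and provides dUMP, had 1478, 1430.5 and 1394 in the GSK-LSD1 libraries, against 1861, 2038 and 2162 in the DMSO libraries. That was the largest fall after Srm among the members, with no overlap and a log2 fold change of -0.49 (SE 0.0522, adjusted p = 1.06e-09). Tk1, the cytosolic thymidine kinase of S phase, had 502, 473 and 512 with GSK-LSD1, against 622, 699.6 and 679.9 with DMSO, with a log2 fold change of -0.43 (SE 0.0649, adjusted p = 1.60e-06), and Dtymk, the thymidylate kinase, fell by 18.0% (adjusted p = 3.64e-05).

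Tyms, the thymidylate synthase between these steps, did not pass. It had 1082, 1046 and 1106 with GSK-LSD1, against 1023, 1031 and 1051 with DMSO, with overlapping groups and a log2 fold change of 0.06 (95% interval -0.05 to 0.17, adjusted p = 0.392), and its interval did not reach the log2 fold changes of Dut or Tk1. Dck, the deoxycytidine kinase that salvages deoxynucleosides and activates cytarabine, had 582, 626 and 643 with GSK-LSD1, against 654, 634 and 590.3 with DMSO. Its groups overlapped as well, with a log2 fold change of -0.02 (95% interval -0.15 to 0.11, adjusted p = 0.814).

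The nucleoside diphosphate kinases Nme1 and Nme2, which make triphosphates of every base, are neighbours on chromosome 11 (93956979 to 93968521 and 93949814 to 93956259, both on the minus strand, GRCm38). Nme1 had 1694, 1549.5 and 1829 in the GSK-LSD1 libraries, against 2234, 2317 and 2419.9 in the DMSO libraries, a log2 fold change of -0.46 (SE 0.0526, adjusted p = 5.54e-09). All 3 GSK-LSD1 libraries were far below the DMSO libraries. Nme2 had 2446, 2477 and 2369.9 with GSK-LSD1, against 2406, 2643 and 2531 with DMSO, with overlapping groups and a log2 fold change of -0.05 (95% interval -0.15 to 0.04, adjusted p = 0.366). A read-through gene model, Gm20390, covers 12.5% of the exon bases of Nme1 and 48.9% of those of Nme2, and 47.0% of the 50-base stretches of Nme2 also stand in that model or in other genes, so how reads were divided here is uncertain.

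All 5 folate enzymes that load and interconvert one-carbon units fell, in the cytosol as in the mitochondrion. Serine hydroxymethyltransferase takes the unit from serine. The mitochondrial Shmt2 was, per kb of exon, the most abundant member with DMSO and had 5409, 5708 and 5438 in the GSK-LSD1 libraries, against 6876, 7199.9 and 6906 in the DMSO libraries. The cytosolic Shmt1 had 892, 903 and 829 with GSK-LSD1, against 1154, 1180.2 and 1113 with DMSO. Neither pair of groups overlapped, and the log2 fold changes were -0.34 (SE 0.0429, adjusted p = 4.21e-08) and -0.39 (SE 0.0546, adjusted p = 2.96e-07).

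The cytosolic trifunctional Mthfd1 had 1339, 1214 and 1260.4 with GSK-LSD1, against 1515, 1648 and 1503 with DMSO. Mthfd1l, which releases formate from the mitochondrion, had 1637, 1577 and 1649.7 with GSK-LSD1, against 1953, 1989.7 and 2035 with DMSO. Both were lower in every GSK-LSD1 library than in any DMSO library, by 18.3% (log2 fold change -0.29, SE 0.0525, adjusted p = 2.64e-05) and 18.6% (-0.30, SE 0.0473, adjusted p = 3.60e-06). Mthfd2, the mitochondrial dehydrogenase and cyclohydrolase often raised in tumours, had 1262, 1150.0 and 1235 with GSK-LSD1, against 1324, 1359 and 1339.9 with DMSO. It fell by 9.40% (log2 fold change -0.14, SE 0.0516, adjusted p = 0.0253), and the call was lost without GSK-LSD1 replicate 2 (0.178), GSK-LSD1 replicate 3 (0.0504) or DMSO replicate 2 (0.0688), with quantile scaling (0.0661), with libraries scaled to the same total (0.0569) and in limma without a variance trend (0.0955).

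Polyamine synthesis held the largest fall of the set. Srm, the spermidine synthase, had 2192, 2155 and 2229.7 in the GSK-LSD1 libraries, against 3134, 3393 and 2978 in the DMSO libraries. Every GSK-LSD1 library was far below every DMSO library, with a log2 fold change of -0.53 (SE 0.0480, adjusted p = 2.50e-11). Odc1, the ornithine decarboxylase that starts the pathway and a well-known MYC target, had 2062, 2134 and 2127 with GSK-LSD1, against 2824, 2846 and 2892 with DMSO, with tight groups and a log2 fold change of -0.44 (SE 0.0449, adjusted p = 4.91e-10). Reads of Odc1 can be shared with pseudogenes, since 24.3% of its 50-base stretches stand in other transcripts. Sms, the spermine synthase, had 643, 672 and 669.6 with GSK-LSD1, against 694, 708 and 797 with DMSO. Its groups did not overlap but it missed the threshold, with a log2 fold change of -0.15 (95% interval -0.27 to -0.02, adjusted p = 0.0562), and it passed without DMSO replicate 1 (adjusted p = 0.0259).

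**Figure D3:**
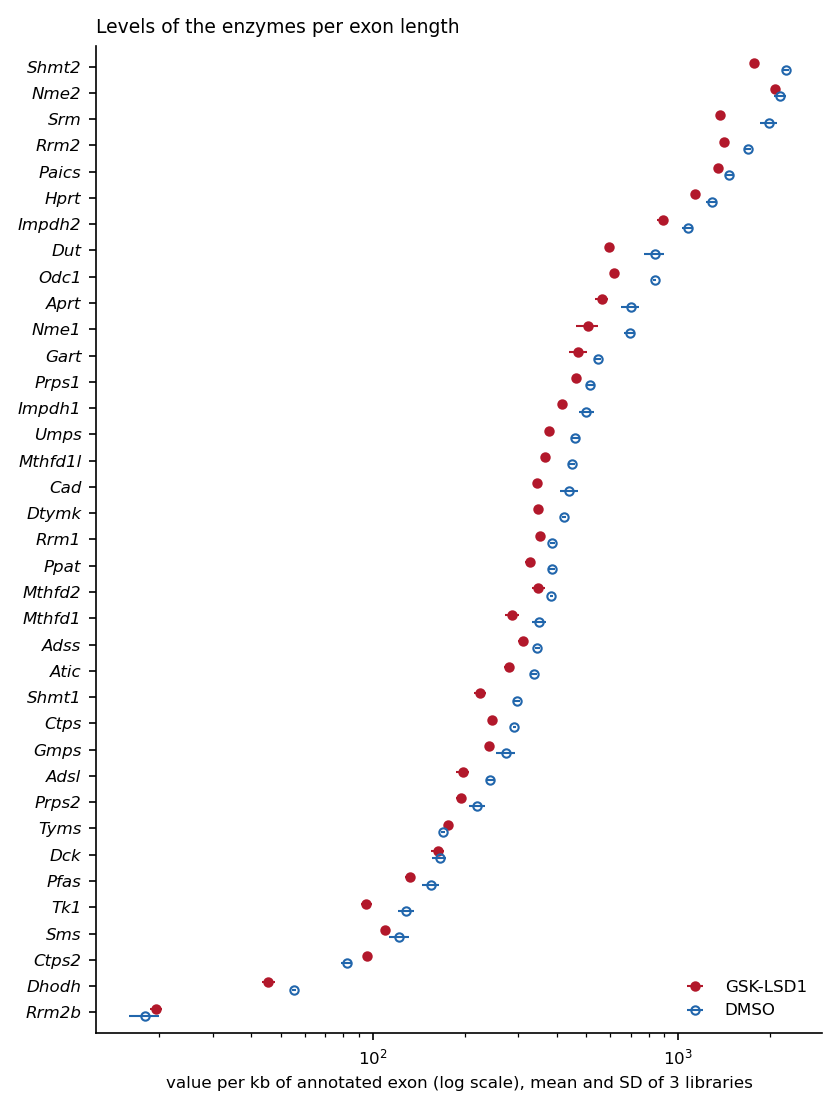
The level of each enzyme as its value per kb of annotated exon (x axis, log scale), mean and SD of 3 libraries, filled red for GSK-LSD1 and open blue for DMSO, with the genes in rows ordered by their DMSO level. Shmt2 and Nme2 stand at the top and Rrm2b at the bottom, and the red points lie left of the blue ones except for Ctps2, Rrm2b and Tyms.

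The enzymes differed far more in level than in response. Per kb of exon, Shmt2 was at 1775 with GSK-LSD1 and 2249.6 with DMSO, Nme2 at 2076 with GSK-LSD1 and 2158 with DMSO and Srm at 1371 with GSK-LSD1 and 1981 with DMSO, while Dhodh was at 45.5 with GSK-LSD1 and 55.3 with DMSO. With DMSO the order at the top was Shmt2, Nme2, Srm and Rrm2, but Shmt2 and Nme2 differed by less than the SD of Nme2. With GSK-LSD1 Nme2 came first, followed by Shmt2. The lengths are the union of all annotated exons, so a gene with rare long transcripts is placed too low.

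Because many of these steps have more than 1 gene, the response of related genes was compared directly, as the log2 ratio of their values within each library. In 6 of 11 pairs the ratio did not overlap between groups. Taken singly, 24.8% of all genes tested were lower and 24.7% higher without overlap. No such share was computed for ratios of other genes, so the count of 6 has no background to be read against. The exact two-sided permutation test over 3 against 3 libraries cannot give a p below 0.10, which all 6 reached, and with Benjamini-Hochberg adjustment over the 11 pairs their p was 0.183, so none passed a threshold of 0.05. The log2 ratio of Ctps over Ctps2 was 0.85 ± 0.0413 with GSK-LSD1 and 1.31 ± 0.0475 with DMSO (SD, n = 3), a difference of -0.47 (SE 0.0364). For Nme1 over Nme2 it was -0.53 ± 0.151 with GSK-LSD1 and -0.12 ± 0.0636 with DMSO, a difference of -0.41 (SE 0.0948).

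The S-phase thymidine kinase Tk1 against its mitochondrial relative Tk2 gave the largest difference of the 11 pairs, -0.72 (SE 0.0657), with log2 ratios of 1.62 ± 0.0641 with GSK-LSD1 and 2.34 ± 0.0940 with DMSO. Rrm2 over Rrm2b differed by -0.39 (SE 0.0898), Adss over its muscle-type relative Adssl1 by -0.30 (SE 0.0614) and Mthfd2 over Mthfd2l by -0.24 (SE 0.0301). The log2 fold changes of the relatives were 0.30 for Tk2 (adjusted p = 0.0283), 0.13 for Rrm2b, 0.14 for Adssl1 (adjusted p = 0.0684) and 0.10 for Mthfd2l (adjusted p = 0.465). The other 5 pairs overlapped. Prps1 over Prps2 differed by 0.02 (SE 0.0705), Impdh1 over Impdh2 by 0.01 (SE 0.0645), Mthfd1 over Mthfd1l by 0.01 (SE 0.0568), Shmt1 over Shmt2 by -0.05 (SE 0.0367) and Dck over Dguok by -0.20 (SE 0.138).

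**Figure D4:**
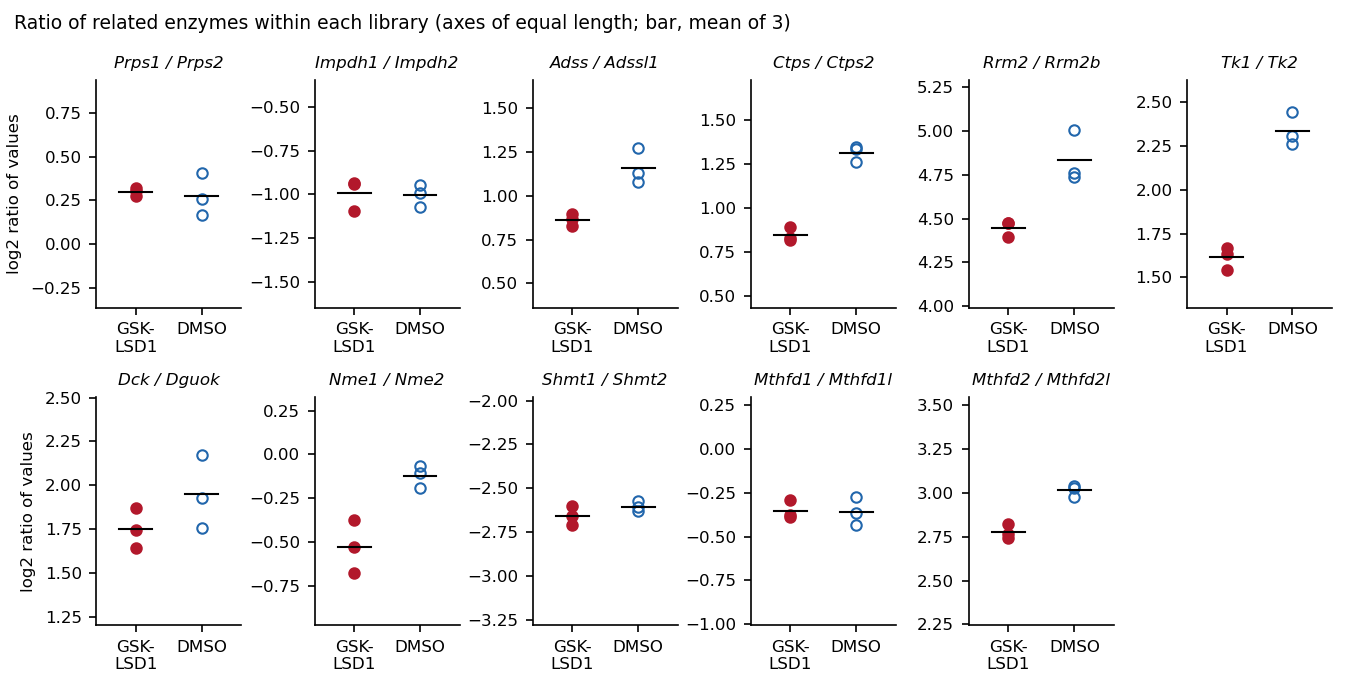
Each panel gives the log2 ratio of the values of 2 related genes within a library (y axis, log2 units, all axes of equal length), with the 3 GSK-LSD1 libraries left, the 3 DMSO libraries right and a bar for the mean. The ratio is lower in all GSK-LSD1 libraries for Adss, Ctps, Rrm2, Tk1, Nme1 and Mthfd2 against their relatives, and the groups overlap in the other 5 panels.

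Genes around these enzymes changed in both directions, as did genes at large. Of 91 tested genes from 7 lists of precursor supply, transport, interconversion and breakdown, 28 were lower, 17 higher and 46 not past the threshold. That is 30.8% lower and 18.7% higher, against 20.5% lower and 20.6% higher among all genes tested. The same shares of all genes stand beside the counts per list below, and no list was tested as a set. The median log2 fold change of the 91 genes was -0.08. The genes named below are up to 3 in each direction per list, ranked by size of change among those called, and only where the mean over the libraries was at least 50.

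In serine and glycine supply, 3 of 9 tested genes fell and 1 rose. Psph, the last enzyme of serine synthesis, fell by 23.4% (adjusted p = 1.65e-05), the glutamine carrier Slc1a5 by 19.3% (adjusted p = 6.33e-07) and Psat1, the step before Psph, by 16.8% (adjusted p = 4.49e-06). The glycine transporter Slc6a9 rose, with 524, 549 and 543 with GSK-LSD1, against 353, 349.8 and 303 with DMSO. Its groups were far apart (log2 fold change 0.69, SE 0.0728, adjusted p = 1.06e-09).

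Among 12 tested genes of folate entry, retention and use, 3 fell and 1 rose. Slc19a1, the reduced folate carrier through which methotrexate also enters, had 674, 719 and 678 in the GSK-LSD1 libraries, against 1045, 1075 and 1030.3 in the DMSO libraries. Its log2 fold change of -0.60 (SE 0.0559, adjusted p = 3.90e-11) was larger in size than that of any of the 37 enzymes. Fpgs, which adds the glutamates that keep folates in the cell, had 379.5, 376 and 402 with GSK-LSD1, against 508, 582 and 442 with DMSO, and fell by 23.9% (adjusted p = 9.62e-05). Ggh, which removes those glutamates, had 116, 137 and 93.4 with GSK-LSD1, against 76.2, 73.3 and 88.6 with DMSO. It rose 1.44-fold (adjusted p = 0.00307), a call lost without GSK-LSD1 replicate 2 (0.0504) and with quantile scaling (0.0521). Mtfmt, which formylates the mitochondrial initiator tRNA, fell by 16.6% (adjusted p = 0.00741).

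In the methionine and S-adenosylmethionine cycle 4 of 12 genes fell and 2 rose. Mat2a, which makes S-adenosylmethionine, fell by 11.8% (adjusted p = 0.000823), and the methionine salvage genes Enoph1 and Mri1 by 25.7% (adjusted p = 1.16e-05) and 23.6% (adjusted p = 0.00533), the last call being lost without DMSO replicate 2 (adjusted p = 0.0660). Ahcyl2, a relative of adenosylhomocysteinase, rose 2.02-fold, with 4511, 4188 and 4488 with GSK-LSD1, against 2188, 2207 and 2140.2 with DMSO (adjusted p = 5.96e-20). Adi1, also of methionine salvage, rose 1.13-fold, a call lost when any of 5 libraries was left out (adjusted p between 0.0513 and 0.0851).

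Around polyamine synthesis, 5 of 12 tested genes rose, 2 fell and 5 did not pass. Arg2, the arginase that supplies ornithine, had 154, 132 and 128 in the GSK-LSD1 libraries, against 32.2, 19.8 and 21.9 in the DMSO libraries, a log2 fold change of 2.47 (SE 0.177, adjusted p = 4.76e-14). Azin1, the antizyme inhibitor that protects ornithine decarboxylase, had 3269.8, 3301 and 3393 with GSK-LSD1, against 2495, 2519 and 2639 with DMSO, a log2 fold change of 0.38 (adjusted p = 1.02e-08). Paox, a polyamine oxidase, rose 1.35-fold (adjusted p = 0.00400). Smox, the spermine oxidase, lay outside the naming rule and was picked with its values in view. It rose 1.24-fold (adjusted p = 0.00119). The antizyme gene Oaz2, also outside the rule, rose 1.19-fold (adjusted p = 0.0220), with overlapping groups. Eif5a, the translation factor that carries the spermidine-derived hypusine, fell by 18.3% (adjusted p = 1.05e-06) and the transport ATPase gene Atp13a3 by 19.6% (adjusted p = 7.54e-07).

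Among 26 tested genes of purine interconversion and breakdown, 9 fell and 3 rose. Gda, the guanine deaminase, had 1058, 1095 and 991 in the GSK-LSD1 libraries, against 505, 446 and 496 in the DMSO libraries, and Xdh, the xanthine dehydrogenase that ends the route in uric acid, had 827, 810.5 and 816 with GSK-LSD1, against 573, 556 and 616 with DMSO. Both were higher in every GSK-LSD1 library, 2.17-fold (adjusted p = 3.94e-17) and 1.41-fold (adjusted p = 2.29e-08). The breakdown and salvage genes Pnp and Ada fell by 28.0% (adjusted p = 4.57e-07) and 28.3% (adjusted p = 0.000100). Ak4, a mitochondrial adenylate kinase, fell furthest, with 192, 156 and 175 with GSK-LSD1, against 480.5, 428 and 509.7 with DMSO, a log2 fold change of -1.43 (adjusted p = 7.63e-16). Ak3, a mitochondrial kinase of AMP, rose 1.14-fold, and that call was lost without GSK-LSD1 replicate 1 (adjusted p = 0.123), GSK-LSD1 replicate 3 (0.0751), DMSO replicate 2 (0.103) or DMSO replicate 3 (0.0815) and without a variance trend (0.0911).

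In the pyrimidine and deoxynucleotide list 6 of 16 genes fell and 3 rose. Upp1, the uridine phosphorylase that opens uridine breakdown, had 125, 139.7 and 104 in the GSK-LSD1 libraries, against 43.9, 52.5 and 54.7 in the DMSO libraries, 2.41-fold higher (adjusted p = 1.13e-08). Samhd1, which hydrolyses deoxynucleoside triphosphates, had 919, 989.5 and 948 with GSK-LSD1, against 620.1, 626 and 602 with DMSO, 1.54-fold higher (adjusted p = 3.24e-11). Both pairs of groups were clearly separate. The nucleotide pyrophosphatase Dctpp1 and the nucleotidase Nt5c3b fell by 24.2% (adjusted p = 2.24e-06) and 24.5% (adjusted p = 2.42e-05). Tk2 (0.30 on the log2 scale) and the mitochondrial nucleotidase Nt5m (-0.32) passed, but the first lost its call without GSK-LSD1 replicate 1 or 3 or DMSO replicate 1 or 2 and with quantile scaling, and the second without GSK-LSD1 replicate 1 (adjusted p = 0.232), without DMSO replicate 1 (0.103) and without a variance trend (0.0962). Adjusted p for Tk2 in those settings lay between 0.0612 and 0.139. Of 4 tested nucleoside transporters 2 rose and 1 fell, Slc28a2, which lay under the mean of 50, was named because it was the 1 that fell, and had 8.16, 11.4 and 7.79 with GSK-LSD1, against 43.9, 59.5 and 43.8 with DMSO. Slc29a1, the main equilibrative carrier of the plasma membrane, had 2442, 2275 and 2194 with GSK-LSD1, against 1621, 1699 and 1589.7 with DMSO, 1.41-fold higher (adjusted p = 2.82e-10). Slc29a3 rose 1.26-fold, with an adjusted p of 0.0590 without GSK-LSD1 replicate 1 and 0.0565 without DMSO replicate 2.

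**Figure D5:**
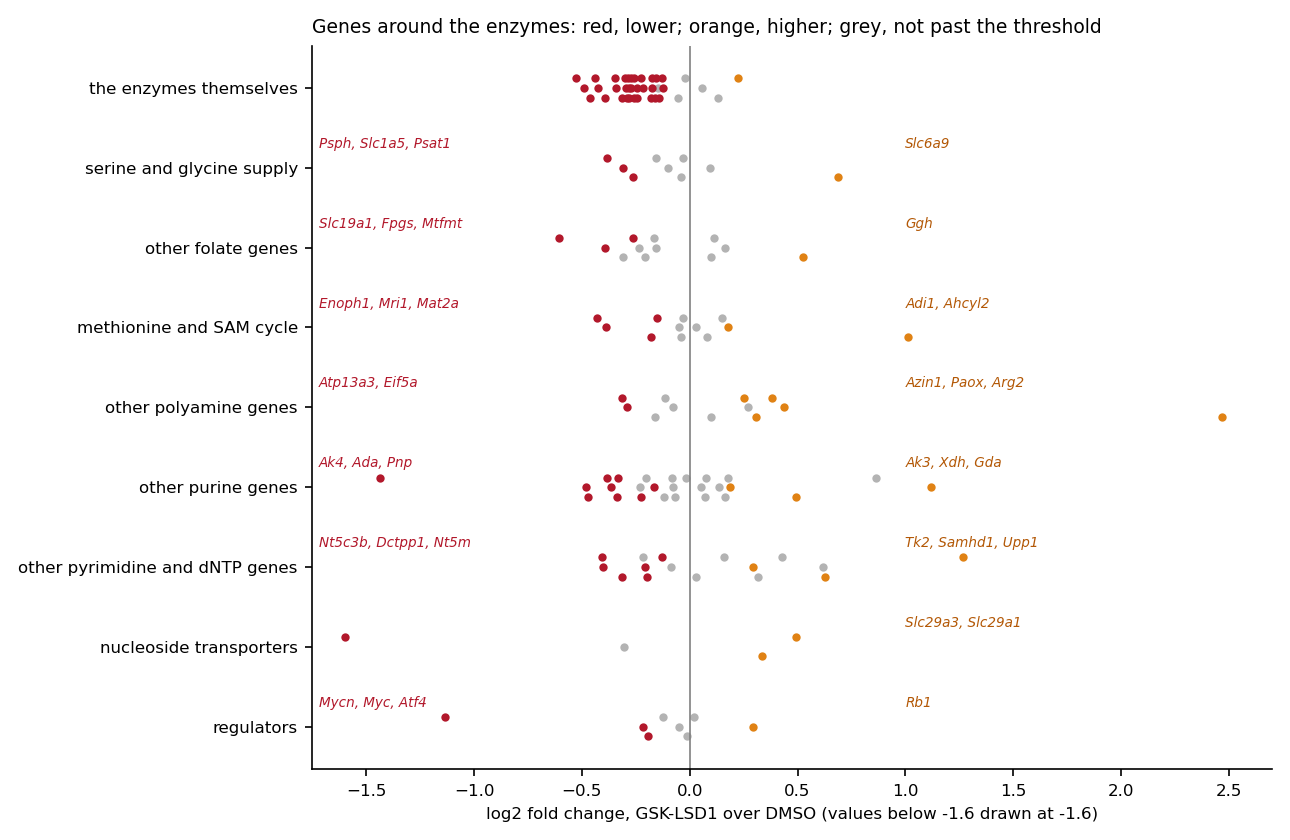
Each point is a gene tested, placed by its log2 fold change (x axis, GSK-LSD1 over DMSO; 1 value below -1.6 is drawn at that mark), with the enzymes described above in the top row and 8 lists of surrounding genes and regulators beneath. Red points fell, orange points rose and grey points did not pass; the enzymes sit almost wholly left of 0, while the surrounding lists reach further on both sides, as far as 2.47 for Arg2.

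Regulators linked to growth and to these enzymes were listed as well. Mycn, a MYC family member, had 622, 584 and 604 in the GSK-LSD1 libraries, against 1357, 1378 and 1248 in the DMSO libraries, 2.20-fold lower (adjusted p = 1.53e-18). Myc had 4519, 5129.8 and 4813 with GSK-LSD1, against 5651, 5419 and 5737 with DMSO, a log2 fold change of -0.22 (adjusted p = 0.000219). Atf4, which drives serine and folate genes when amino acids are short, fell by 12.5% (adjusted p = 0.000452). The E2F genes that serve the G1/S program did not pass, with log2 fold changes of -0.12 for E2f1 (adjusted p = 0.170), -0.01 for E2f2 (adjusted p = 0.894) and 0.02 for E2f3 (adjusted p = 0.845). Rb1, which restrains E2F, rose 1.22-fold (adjusted p = 0.000955), and Trp53 did not pass (-0.05, adjusted p = 0.364).

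MYC proteins bind the palindromic E-box CACGTG, so this sequence was searched for in the 250 bases before the transcription start of each member. RefSeq promoters of build GRCm38.p6 matched 34 of the 38 members. The motif reads the same on both strands and was found in 7 members, 20.6%, against 896 of the 8920 tested genes with a promoter and 6.86% of the 27025 genes in the promoter table. The 8 sites are printed as runs of 30 bases on the strand of the gene, with the E-box in capitals, to show which members carry one and how the flanks differ.
Nme1 (first start, chr11:93968273-93968302): gctgcggggaacCACGTGaggccggggagc
Nme1 (second start, chr11:93968037-93968066): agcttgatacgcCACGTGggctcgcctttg
Dtymk (chr1:93802065-93802094): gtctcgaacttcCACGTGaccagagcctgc
Impdh2 (chr9:108560314-108560343): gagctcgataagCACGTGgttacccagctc
Atic (chr1:71557137-71557166): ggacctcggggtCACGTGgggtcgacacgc
Paics (chr5:76951087-76951116): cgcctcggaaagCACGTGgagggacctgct
Sms (chrX:157492466-157492495): cccagcggggttCACGTGcatttaaagaaa
Tyms (chr5:30073669-30073698): aaccacttctgtCACGTGggggcggggtct

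Counted from the transcription start, the first C of the site lies at -7 in Atic, at -18 and -29 before the 2 starts of Nme1, at -61 in Tyms, -110 in Impdh2, -148 in Dtymk, -196 in Sms and -203 in Paics. Of these 7 genes, Nme1, Dtymk, Impdh2, Atic and Paics fell, and Sms and Tyms did not pass. The motif stood in 5 of the 28 members with a promoter that fell and in 2 of the 5 analysed members that did not, and it was found in 10.2% of all tested genes called lower. Srm, Dhodh, Pfas and Rrm2b had no promoter in that table. The letters TTTNGCGC, used here for E2F and searched on both strands, were in none of the 34 members and in 2.61% of tested genes. Other spellings of an E2F site were not searched for, so this does not show that the members lack such sites. CCAAT, the letters bound by NF-Y, also on both strands, was in 35.3% of the members and 40.9% of tested genes. The composite C/EBP and ATF letters TGATGNAA, on both strands, were in 1 of the 34 members and 2.48% of tested genes. A match shows only that the letters are there.

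Other programs of growing cells were set beside the enzymes for description. Of all genes tested, 20.5% were called lower and 20.6% higher. Of 27 genes of replication licensing and the fork, 21 fell and none rose, with a median log2 fold change of -0.23. Of 25 tested ribosome biogenesis genes, 23 fell and none rose, with a median of -0.28, and of 20 mitosis genes 8 fell and 3 rose, with a median of -0.09. The enzymes' median of -0.26 lay between the medians of the first and second lists, and no test set the lists against each other.

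Markers of maturing cells moved in the same libraries, where 20.5% of all genes tested were called lower and 20.6% higher. Of 12 listed neutrophil markers 8 were tested, 7 rose and 1 fell, and the summed value of the 10 measured was 22162 to 22908 with GSK-LSD1 and 4864 to 5327 with DMSO. Most of the GSK-LSD1 sum came from Mmp8, a neutrophil collagenase, which had 15769.5, 15729 and 15237 with GSK-LSD1, against 2314, 2377 and 2436 with DMSO. The marker that fell was the granule protein gene Ngp (log2 fold change -1.25, adjusted p = 6.23e-05). All 8 tested monocyte and macrophage markers of 12 listed rose, with sums of 2605 to 2849 with GSK-LSD1 and 885 to 923 with DMSO. All 8 tested erythroid markers of 12 listed fell, and the sums were 4832 to 5206 with GSK-LSD1 and 5540.2 to 6038 with DMSO, most of which was the transferrin receptor gene Tfrc. Klf1, an erythroid transcription factor, had 19.4, 19.7 and 11.7 with GSK-LSD1, against 43.9, 56.5 and 58.7 with DMSO. The part of these changes in the fall of the enzymes was not tested.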

How the data were processed

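The table the authors deposited gives each library 1 normalised signal per gene, and judged by the values this is a read count divided by a scaling factor of that library: all values are whole multiples of the smallest value of their library, within 0.01. STAR, DESeq2, mm10 and GRCm38 appear in the list of tools and builds, per the submitters' processing notes, with no versions or roles. No source used here states the counter, annotation or strand setting. Taking the smallest value as 1 read, the libraries held 9572638 to 10199533 counted reads, which sets their precision. Library pairs within a group differed by more than sampling noise (chi-square per degree of freedom of 1.57 to 1.86 for GSK-LSD1 and 2.52 to 3.51 for DMSO over genes with summed reads of at least 20), so all 6 were counted.

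Genes with a value of at least 10 in at least 3 of 6 libraries were tested, 11588 of 15035, by a two-sided limma fit (version 3.58.1, R 4.3.3) with a variance trend. It used log2(value + 1), the scale of every fold change, taken as GSK-LSD1 over DMSO, and called genes at a Benjamini-Hochberg adjusted p under 0.05 over the tested genes. The test was checked on simulated data, in 5 runs with 200 changed genes each. It recovered 33.2% of genes changed 1.25-fold, 62% of those changed 1.5-fold and 78.4% of those changed 2-fold. Of its calls, 5.12% were false. The simulated spread was drawn from the GSK-LSD1 libraries alone, which varied less among themselves than the DMSO libraries did. It was also assigned to genes at random, whatever their level, and far fewer genes were changed than the 41.1% called in the data. The rates therefore may not hold for genes as abundant as the members. Count models were not fitted, because the recovery of whole reads was not accepted for DMSO replicates 2 and 3, whose smallest values lie close to 1. The read totals and the chi-square values above rest on that recovery and are provisional. Gene positions and exon lengths come from GENCODE M21 (GRCm38), which may not be the authors' annotation. Shared 50-base stretches were counted among its transcripts. Ratios of related genes were tested with an exact permutation test (scipy 1.17.1).

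Every member was described. Members past the threshold with a log2 fold change of at least 0.3 in size, those with a listed relative and the one that rose were given in full. The others were given by range and count, with values for some, Ppat among them in full. Slc28a2, Smox and Oaz2 were named outside the rule for surrounding genes. The members, lists, pairs and motifs were chosen with earlier results of these data known. Replicate numbers did not pair the libraries.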

Additional observations from a re-analysis of the deposited data

How the results depend on the processing

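Across 14 alternatives (pseudocounts of 0.5 and 5, no filter, a mean value of at least 50, quantile scaling, scaling to the same total, no variance trend, a replicate block and leaving out each library), between 23 and 31 enzymes were lower and 1 was higher in each. The 23 came from limma without a variance trend, which called 1662 genes lower in all. Leaving out 1 library gave 27 to 31 lower enzymes and a median between -0.27 and -0.24. With quantile scaling the enzymes' median was -0.22 and that of all genes -0.05, with 28 enzymes lower and with 2094 genes higher and 2618 lower in place of 2389 and 2373; the cause was not tested. Of the 37 enzymes, 28 kept their side of the threshold in every alternative, 8 lost a call in at least 1, Sms gained one and none reversed. The direction of the 6 pairs that did not overlap was kept in each alternative run for pairs. With the replicate block 31 enzymes were lower and 1 higher, 2316 genes were lower and 2345 higher, and no call of an enzyme changed. Same-numbered libraries did not deviate together (correlations of -0.02, -0.03 and -0.01), so the numbers were not used for pairing. Planned count tests with edgeR and DESeq2 were not run. For 7 of the 37 enzymes at least 10% of the 50-base stretches stand in other transcripts, which limits how far their values can be assigned.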
